A study of Rattus norvegicus with 69 samples.

Results

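Transcripts of genes grouped as induced by neuronal activity were followed in hippocampal CA1 of rats kept awake or placed in an unfamiliar environment. The 10 genes were Fos, Jun, Junb, Egr1 and Nr4a1, which encode transcription factors; Arc, Ptgs2 and Nptx1, whose products act on synapses and membranes; and Dusp6 and Ifrd1, which encode regulators that are themselves induced. They were chosen by name, with earlier results of these data known, so their counts beside all probe sets are descriptive. Every probe set whose annotated gene symbol was 1 of the 10 was kept. That gave 24 of the 8740 probe sets other than controls, and 10 of the 4736 gene symbols on the array. Of the 24, 22 had a mean signal above the median of all probe sets and 2 lay below it (rc_AA944014_at for Jun and rc_AI072098_at for Nptx1). None of their values was 0 and the lowest was 71.6. Where a gene had several probe sets, the brightest one stands for it unless another is named.

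CA1 RNA of 69 male Fischer 344 rats aged 3 to 5 months was measured on 1 Affymetrix RGU34A array per animal. Home cage controls (HC) stayed in their home cages. Sleep deprived animals (24SD, 72SD) spent 24 or 72 hours with a cage mate on flower pots standing in water. Animals of the NES groups (24NES, 72NES), which met the stress of an unfamiliar environment, spent the same times in such chambers, but a grid laid over the pots left them free to sleep. Sleep itself is not among the measurements. There were 2 cohorts. The first had 10 animals in 24NES, 6 in 72NES, 5 in HC and 8 in each SD group, and the second had 12 in HC, 8 in 24SD and 12 in 72SD. Active avoidance training came before the experiment for the HC and SD rats of the first cohort, whereas the NES rats and the second cohort are not named among the trained. All animals were anesthetized with CO2 before decapitation. SD and NES of cohort 1 were compared with the same 5 HC arrays. Cage mates cannot be matched from the labels, and every test takes each rat as a separate sample.

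Immediate early genes are transcribed within minutes of synaptic calcium entry, without new protein synthesis, through factors such as CREB and serum response factor that already sit at their promoters. In CA1 they mark cells that were recently active, and Arc and Egr1 are needed for lasting synaptic change. Their transcripts are short-lived, so a level reflects the period just before the tissue was collected. In whole CA1 tissue, fewer cells of a type and less RNA per cell cannot be told apart.

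The 250 bases before the transcription start are shown for 4 of the genes, since such stretches can hold the elements through which activity reaches a gene. RefSeq promoter windows (GRCr8) were given for 6 of the 10 genes, namely Egr1, Junb, Nr4a1, Ptgs2, Dusp6 and Ifrd1. Capitals mark matches to any of 7 motifs searched on both strands. These were the cAMP response element TGACGTCA, its core TGACG, the AP-1 site TGANTCA, the Egr site GCGNGGGCG, the Nr4a site AAAGGTCA, the TATA box TATAAA and the CArG box of serum response factor. A full element also counts as a match to its core. Egr1 (chr18:26736828-26737077, plus strand) and Nr4a1 (chr7:134259888-134260137, plus strand) stand for the transcription factor genes, and Ptgs2 (chr13:64713813-64714062, plus strand) and Ifrd1 (chr6:63016066-63016315, minus strand) for the genes with the largest differences from HC in cohort 1.
Egr1: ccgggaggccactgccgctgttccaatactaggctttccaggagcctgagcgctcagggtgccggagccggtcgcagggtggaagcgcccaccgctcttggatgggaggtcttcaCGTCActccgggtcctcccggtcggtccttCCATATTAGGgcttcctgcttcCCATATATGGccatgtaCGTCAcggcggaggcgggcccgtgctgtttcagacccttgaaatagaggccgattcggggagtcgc
Nr4a1: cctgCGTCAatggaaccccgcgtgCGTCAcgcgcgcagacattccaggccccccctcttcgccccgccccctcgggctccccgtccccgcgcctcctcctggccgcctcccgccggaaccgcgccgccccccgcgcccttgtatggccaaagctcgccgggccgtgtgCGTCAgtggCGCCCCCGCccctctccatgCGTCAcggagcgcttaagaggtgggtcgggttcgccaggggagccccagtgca
Ptgs2: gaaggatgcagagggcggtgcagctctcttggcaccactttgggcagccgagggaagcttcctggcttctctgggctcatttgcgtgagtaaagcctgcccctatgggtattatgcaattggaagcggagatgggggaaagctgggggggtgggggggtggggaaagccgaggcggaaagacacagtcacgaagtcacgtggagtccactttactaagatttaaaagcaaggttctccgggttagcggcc
Ifrd1: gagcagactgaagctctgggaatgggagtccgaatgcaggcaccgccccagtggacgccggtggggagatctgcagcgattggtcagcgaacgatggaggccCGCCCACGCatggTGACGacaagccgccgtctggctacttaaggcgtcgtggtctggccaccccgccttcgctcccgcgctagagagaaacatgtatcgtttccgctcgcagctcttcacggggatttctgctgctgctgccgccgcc
The Egr1 window held 2 CArG boxes, from 105 to 96 and from 83 to 74 bases before the start, where 1.5% of 33465 rat windows of this length held any. It also held 2 matches to the core TGACG, which 18.2% of all windows held. The Nr4a1 window held 4 such cores and 1 Egr site, which 4.29% of windows held. Ifrd1 had 1 core and 1 Egr site, and Junb had 1 core and a TATA box, which 12.9% of windows held. None of the 7 motifs was found in these letters of Ptgs2 and Dusp6. The full cAMP response element (1.59% of windows), the AP-1 site (6.34%) and the Nr4a site (1.24%) were found in none of the 6 windows.

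The cohorts differed widely, and 2 arrays went against their cohort label. Over the 53 HC and SD arrays, a limma fit of treatment plus cohort found that 4402 of 8740 probe sets (50.4%) differed between cohorts at an adjusted p under 0.05. Each of these 53 arrays was placed along that difference with 4348 bright probe sets other than the 24, on a scale where the SD arrays of cohort 1 center on -1 and those of cohort 2 on 1. The 21 arrays of cohort 1 lay between -1.31 and -0.60, and 30 arrays of cohort 2 lay between 0.27 and 1.26. HC arrays 6 and 17, both labelled cohort 2, lay at -0.62 and -0.40. They were kept in cohort 2 as labelled, and the main results of the 10 genes that rest on them are given without them as well. Nearest genes, gene lists and markers are given with them only. The defining markers of CA1 and excitatory neurons on the array (Itpka, Pou3f1, Camk2a and Slc17a7, 4 of 7 listed) had a mean log2 signal per array of 9.31 to 9.79 in cohort 1 and 9.57 to 10.17 in cohort 2. None of the treatment comparisons gave an adjusted call in any marker list.

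Ptgs2, Nptx1, Ifrd1 and Dusp6 had higher group means than HC in all 4 treated groups of cohort 1, with or without the grid, by 0.31 to 0.92 on the log2 scale. In the 2 treated groups of cohort 2 the differences ran from -0.27 to 0.29, and from -0.14 to 0.16 without HC arrays 6 and 17. None passed an adjusted p of 0.05 over all probe sets in any single treatment comparison of the main analysis. Their values are given first. The level of each gene is a log2 MAS5 signal, and levels are not compared between genes.

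Ptgs2 encodes cyclooxygenase-2, the inducible enzyme of prostaglandin synthesis in excitatory neurons. The 5 HC arrays of cohort 1 read 10.26, 9.59, 9.25, 10.03 and 9.67. The 24SD arrays read 9.83 to 10.85 (median 10.57) and the 72SD arrays 10.13 to 11.21 (median 10.55). The 24NES arrays read 10.11 to 11.03 (median 10.69) and the 72NES arrays 9.68 to 10.86 (median 10.47). Of these 32 treated animals, 31 lay above the HC mean and 26 above every HC array. In cohort 2 the groups overlapped, with HC at 9.14 to 10.39 (median 9.99), 24SD at 9.89 to 10.60 (median 10.21) and 72SD at 8.64 to 10.78 (median 9.98). The 2 lowest of these HC values, 9.14 and 9.37, belong to arrays 6 and 17, and the other 10 lay between 9.85 and 10.39. A second probe set, L25925_s_at, had means of 8.99 in HC, 9.12 in 24SD and 9.42 in 72SD of cohort 1. There 2 of 8 animals of 24SD lay above every HC animal. Its means were 9.39 in 24NES and 9.27 in 72NES. In cohort 2 they were 8.90 in HC, 8.79 in 24SD and 8.56 in 72SD.

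Nptx1 encodes neuronal pentraxin 1, a secreted protein that binds AMPA receptors at excitatory synapses. Its HC arrays of cohort 1 read 11.75, 11.86, 11.67, 11.42 and 11.61. The treated groups of that cohort read 11.60 to 12.64 in 24SD (median 12.49), 11.92 to 12.78 in 72SD (median 12.33), 11.82 to 12.79 in 24NES (median 12.50) and 11.95 to 12.64 in 72NES (median 12.09). Every 72SD animal lay above every HC animal, which held for 0.309% of all probe sets, and so did every 72NES animal, which held for 0.481%. Of the 32 treated animals, 30 lay above every HC animal. In cohort 2 the groups overlapped and HC had the highest median, with HC at 11.04 to 12.48 (median 11.64), 24SD at 11.02 to 12.01 (median 11.59) and 72SD at 10.46 to 11.85 (median 11.46). The top 2 of these HC values, 12.48 and 12.28, belong to arrays 17 and 6, and the other 10 lay between 11.04 and 11.94. These values are of rc_AI072943_at, and the other probe sets annotated to Nptx1 did not follow it, with r of 0.08 (rc_AI044716_at) and 0.13 (rc_AI072098_at) over 69 arrays. Against HC of cohort 1, rc_AI044716_at gave 0.01 to 0.19 in the 4 treated groups, and rc_AI072098_at, 1 of the 2 dim probe sets, gave -0.82 in 24SD, 0.16 in 72SD, -0.40 in 24NES and -0.03 in 72NES. What is said of Nptx1 below holds for the brightest probe set where no other is named.

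Ifrd1 encodes an interferon-related co-regulator of transcription that is induced by growth and nerve signals. HC of cohort 1 read 10.10, 10.28, 10.58, 9.97 and 10.02, against medians of 10.80 in 24SD, 10.78 in 72SD, 10.94 in 24NES and 10.70 in 72NES. The full ranges were 10.31 to 10.96, 10.26 to 11.29, 10.43 to 11.50 and 9.87 to 11.02, so 25 of 32 treated animals lay above every HC animal and 1 lay below all of them. In cohort 2 HC read 10.27 to 10.88 (median 10.56), 24SD 10.22 to 10.90 (median 10.61) and 72SD 10.42 to 11.12 (median 10.77).

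Dusp6 encodes the phosphatase that switches off ERK and is itself transcribed when ERK is active. Its HC arrays of cohort 1 read 10.62, 10.90, 10.87, 10.88 and 10.63. All 16 SD arrays of that cohort lay above all 5 HC arrays, at 10.96 to 11.45 in 24SD and 10.98 to 11.26 in 72SD, and only 7 of 8740 probe sets (0.0801%) were separated from HC in this way. The 24NES arrays read 10.67 to 11.46 (median 11.18) and the 72NES arrays 10.88 to 11.26 (median 11.09). Cohort 2 lay higher as a whole and its groups overlapped, with HC at 10.88 to 11.75 (median 11.46), 24SD at 11.43 to 11.67 and 72SD at 10.96 to 11.84.

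**Figure D1:**
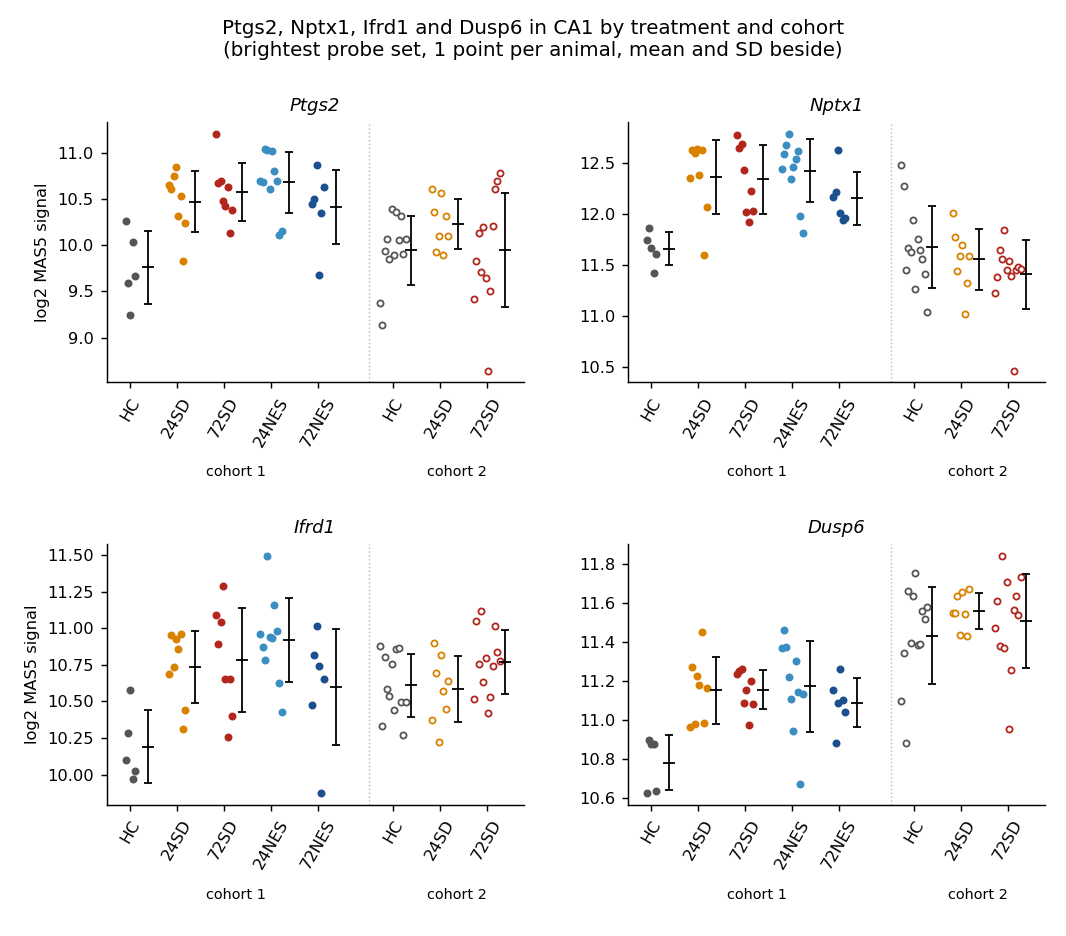
Log2 MAS5 signal (y axis) of Ptgs2, Nptx1, Ifrd1 and Dusp6 by treatment group (x axis), with filled points for animals of cohort 1, open points for cohort 2, and the mean with SD beside each group. In cohort 1 the HC means lie below all 4 treated means in each panel, and all 16 SD points of Dusp6 lie above the 5 HC points, whereas the groups of cohort 2 overlap.

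SD was compared with HC over 53 arrays with limma, cohort as a term and Benjamini-Hochberg adjustment over 8740 probe sets. For either duration by the moderated F-test, 0 of 24 probe sets passed an adjusted p of 0.05, where 10 of all probe sets did (0.114%). At an unadjusted p under 0.05 there were 5 of 24, against 10.3% of all probe sets. Ifrd1 (mean log2 change over both durations 0.24, adjusted p = 0.308), Dusp6 (0.19, adjusted p = 0.333) and Ptgs2 (0.34, adjusted p = 0.441) were the higher ones. The lower ones were probe sets U75398_s_at of Egr1 (-0.16, adjusted p = 0.238) and X54686cds_at of Junb (-0.12, adjusted p = 0.466). Without HC arrays 6 and 17 the count was 2 higher and 5 lower, against 8.52% of all probe sets. Ptgs2 then had a change of 0.27 and an unadjusted p of 0.105 (adjusted p = 0.687), and the lower ones gained M18416_at of Egr1 and 2 probe sets of Fos. The methods' 1-way ANOVA on signals standardized within cohort, with removal of values, gave 8 of 24 at an unadjusted p under 0.05, where 18.2% of all probe sets had one.

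At 24 hours, 18 probe sets of 8740 passed (0.206%) and again 0 of the 24. At an unadjusted p under 0.05 the count was 9 of 24, against 14.8% of all probe sets, with 3 higher (5.69% of all) and 6 lower (9.08% of all). Dusp6 lay 0.21 ± 0.071 (SE) above HC (adjusted p = 0.155) and Ptgs2 0.40 ± 0.15 above it (adjusted p = 0.208). The lower probe sets belonged to Egr1, Junb, Fos and Nptx1 (rc_AI072098_at, -0.64 ± 0.27, adjusted p = 0.264), led by U75398_s_at of Egr1 at -0.25 ± 0.071 (adjusted p = 0.0927). Without HC arrays 6 and 17 the count was 13 of 24 (4 higher, 9 lower), against 11.9% of all probe sets, and 0 passed the adjusted test. The median change of the 24 was -0.16 and that of all probe sets -0.03, and 16 of the 24 had a negative change against 57.2% of all. At 72 hours the fit gave 2 called probe sets (0.0229%), 0 of them among the 24, and 3 of 24 at an unadjusted p under 0.05 against 7.16% of all. These were Ifrd1 (0.29 ± 0.090, adjusted p = 0.328), Dusp6 (0.17 ± 0.067, adjusted p = 0.551) and X03347cds_g_at of Fos (-0.21 ± 0.10, adjusted p = 0.689). Between 72SD and 24SD no probe set of the array passed, 359 of 8740 had an unadjusted p under 0.05 (4.11%), and 1 of 24 had an unadjusted p under 0.05 (U75398_s_at of Egr1, 0.17 ± 0.067, adjusted p = 0.998).

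The comparison was repeated within each cohort. In cohort 1 alone, 12 probe sets passed at 24 hours (0.137%) and 1 at 72 hours (0.0114%), none of them among the 24. At an unadjusted p under 0.05 there were 6 of 24 at 24 hours, 5 of them higher (10.6% of all in either direction), and 5 at 72 hours, all higher (7.71% of all). There 24SD lay above HC by 0.71 ± 0.19 in Ptgs2 (adjusted p = 0.141), 0.70 ± 0.18 in Nptx1 (adjusted p = 0.133), 0.54 ± 0.17 in Ifrd1 (adjusted p = 0.224) and 0.37 ± 0.090 in Dusp6 (adjusted p = 0.107). The corresponding values at 72 hours were 0.82 ± 0.19, 0.68 ± 0.18, 0.59 ± 0.17 and 0.37 ± 0.090, with adjusted p = 0.122, 0.205, 0.258 and 0.151. In cohort 2 alone the 24SD values were 0.29 ± 0.21, -0.12 ± 0.16, -0.03 ± 0.10 and 0.13 ± 0.10, and the 72SD values 0.0015 ± 0.18, -0.27 ± 0.14, 0.16 ± 0.091 and 0.07 ± 0.090, in the same order. Without HC arrays 6 and 17 they were 0.15 ± 0.20, 0.02 ± 0.14, -0.03 ± 0.10 and 0.08 ± 0.10 at 24 hours, and -0.14 ± 0.18, -0.13 ± 0.13, 0.16 ± 0.093 and 0.03 ± 0.093 at 72 hours, so the signs of Nptx1 at 24 hours and of Ptgs2 at 72 hours depend on those arrays. No probe set of the array passed in cohort 2 alone, where 806 had an unadjusted p under 0.05 at 24 hours (9.22%) and 519 at 72 hours (5.94%). Of the 24, 1 had such a p at 24 hours, X54686cds_at of Junb, which was lower (5.81% of all were lower). At 72 hours 7 had one and all 7 were lower, against 3.54% of all. They were the 3 probe sets of Fos, 2 of Jun (-0.18 ± 0.084 and -0.20 ± 0.090), rc_AA891041_at of Junb (-0.30 ± 0.13) and L25925_s_at of Ptgs2 (-0.34 ± 0.14), each with an adjusted p of 0.801. Without HC arrays 6 and 17 these counts were 6 and 8, all lower, against 6.86% and 4.82% of all probe sets in either direction. The difference between cohorts was then tested. At 24 hours it was -0.82 ± 0.25 for Nptx1 (adjusted p = 0.321), -0.43 ± 0.30 for Ptgs2 (adjusted p = 0.837), -0.57 ± 0.18 for Ifrd1 (adjusted p = 0.373) and -0.24 ± 0.14 for Dusp6 (adjusted p = 0.787). No probe set of the array passed, 2 of the 24 had an unadjusted p under 0.05, against 7.19% of all, and 18 of 24 were lower in cohort 2 (median -0.09). At 72 hours the test gave -0.95 ± 0.24 for Nptx1 (adjusted p = 0.0849), -0.82 ± 0.29 for Ptgs2 (adjusted p = 0.397), -0.44 ± 0.18 for Ifrd1 (adjusted p = 0.487) and -0.30 ± 0.14 for Dusp6 (adjusted p = 0.582). No member passed, 11 of 8740 probe sets did (0.126%), and 8 of the 24 had an unadjusted p under 0.05, against 7.65% of all. The change at 72 hours was lower in cohort 2 than in cohort 1 for 22 of the 24 probe sets (median -0.30, all probe sets -0.01). Without HC arrays 6 and 17 the difference in Nptx1 was -0.81 ± 0.22 (adjusted p = 0.148) and that in Ptgs2 -0.95 ± 0.28 (adjusted p = 0.203). In that fit 23 of 24 were lower, and 11 of 24 had an unadjusted p under 0.05, against 7.65% of all probe sets.

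**Figure D2:**
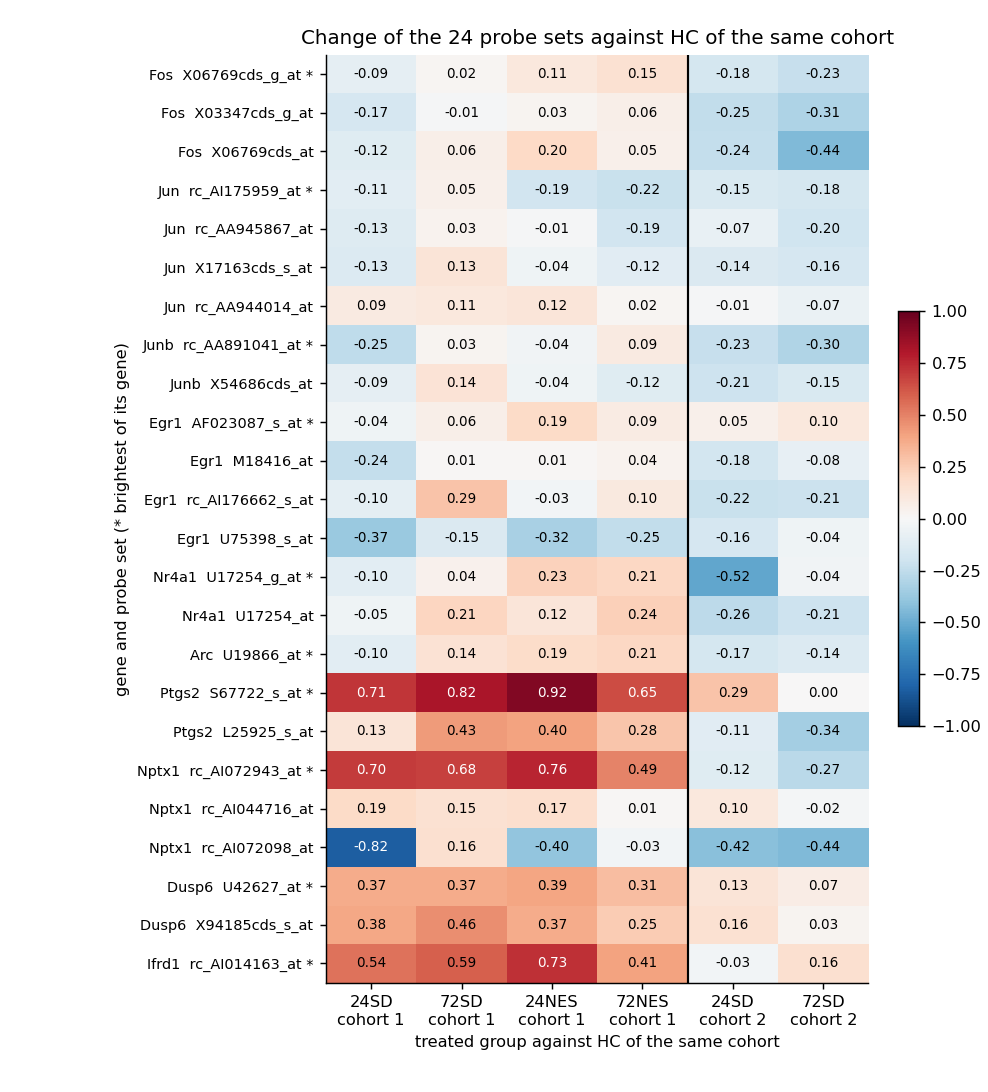
Log2 change of each of the 24 probe sets (rows, grouped by gene, asterisk for the brightest of its gene) in the 6 treated groups (columns) against HC of the same cohort, red for higher and blue for lower. The starred rows of Ptgs2, Nptx1, Dusp6 and Ifrd1 are red in all 4 columns of cohort 1, from 0.31 to 0.92, and the 2 columns of cohort 2 are mostly pale or blue.

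The NES animals gave higher means for the same 4 genes, set against the same 5 HC arrays. At 24 hours Ptgs2 lay 0.92 ± 0.20 above HC (1.90-fold, adjusted p = 0.107), Nptx1 0.76 ± 0.15 (1.70-fold, adjusted p = 0.101), Ifrd1 0.73 ± 0.17 (1.66-fold, adjusted p = 0.125) and Dusp6 0.39 ± 0.11 (1.31-fold, adjusted p = 0.206). Only 1 of 8740 probe sets passed in this comparison (0.0114%), and 0 of the 24. At an unadjusted p under 0.05 there were 7 of 24, all higher, against 10.7% of all probe sets (6.67% higher). They included the second probe sets of Ptgs2 (0.40 ± 0.16) and Dusp6 (0.37 ± 0.16) and the brightest of Egr1 (0.19 ± 0.084, adjusted p = 0.411). When the test was limited to the brightest probe set of each gene in the upper 50% of signals, 12 of 2689 genes passed (0.446%) and 3 of them were members: Nptx1 and Ptgs2 (both adjusted p = 0.0429) and Ifrd1 (adjusted p = 0.0462). At 72 hours the differences were 0.65 ± 0.22 in Ptgs2, 0.49 ± 0.17 in Nptx1, 0.41 ± 0.19 in Ifrd1 and 0.31 ± 0.13 in Dusp6 (adjusted p from 0.858 to 0.962), and these were the 4 of 24 with an unadjusted p under 0.05, against 5.03% of all probe sets (2.43% higher). No probe set of the array passed at 72 hours, where 440 had an unadjusted p under 0.05, nor in the F-test over both durations, where 754 did (8.63%), the same 4 genes among them.

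The group means of the blood markers moved opposite to those of these 4 genes in cohort 1. All 3 blood markers measured of 6 listed (Hbb, Hbb-b1 and Alas2) were lower in each treated group of that cohort than in HC. Per array, their mean log2 level ranged from 11.66 to 11.86 among HC, from 10.95 to 11.75 among 24SD and from 10.85 to 11.62 among 72SD animals. Among 24NES it ranged from 10.65 to 11.73 and among 72NES from 11.22 to 11.70. In 24NES all 3 had an unadjusted p under 0.05, where 4.06% of all probe sets were lower with such a p. Their median change was -0.50, and none passed the adjusted test. In cohort 2 all 3 were higher than HC in both SD groups, with median changes of 0.34 and 0.22, and none passed. None was at 0, and their part in the result was not tested. The neuron markers (9 of 13 listed) had median changes of 0.02 in 24SD, 0.02 in 72SD, -0.05 in 24NES and -0.02 in 72NES of cohort 1. The astrocyte markers (7 of 9 listed) had a mean level of 11.94 in HC and 11.73 to 11.91 in the treated groups, and every 72NES array (11.36 to 11.89) lay below every HC array (11.92 to 11.97). The CA3 markers averaged 11.25 in HC and 11.29 to 11.39 in the treated groups, with overlap. GAPDH signal at the 3′ end over that at the 5′ end, a measure of RNA integrity, averaged 1.05 ± 0.077 (SD) in the 5 HC arrays and 1.01 to 1.05 in the treated groups. The same ratio of beta-actin was lowest in HC (1.21 ± 0.19) and averaged 1.23 to 1.35 in the treated groups, within the spread between arrays. Array 71 of 72NES had the highest values of both ratios, 1.26 for GAPDH and 1.76 for beta-actin. HC array 3 had 1.18 for GAPDH and the lowest beta-actin ratio, 0.90. The part of these measures was not tested either. Since the NES rats are not named among the trained, any difference in training cannot be told apart from the treatment in HC against NES.

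Of the 6 remaining genes, Fos, the partner of Jun in AP-1, had lower SD means than HC in cohort 2, and its SD means in cohort 1 lay within 0.09 of HC. HC of cohort 1 read 11.55, 11.68, 10.89, 11.42 and 11.05, and the 4 treated groups of that cohort had medians from 11.25 (24SD) to 11.53 (72NES). In cohort 2 HC read 10.58 to 11.73 (median 11.45), 24SD 10.93 to 11.35 (median 11.26) and 72SD 10.66 to 11.53 (median 11.15). The 2 lowest HC values of cohort 2 were 10.58 and 11.04, again arrays 6 and 17. In cohort 2 alone the difference at 72 hours was -0.23 ± 0.11 with them (adjusted p = 0.801) and -0.35 ± 0.086 without them (adjusted p = 0.617), and at 24 hours -0.18 ± 0.12 and -0.29 ± 0.095. The 3 probe sets of Fos gave -0.23, -0.31 and -0.44 at 72 hours in cohort 2, and 0.02, -0.01 and 0.06 in cohort 1. At 24 hours of SD the means of all 3 lay below HC in both cohorts.

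Egr1, a zinc finger factor tied to the upkeep of long-term potentiation, was split by its probe sets. On the brightest, AF023087_s_at, HC of cohort 1 read 13.61, 13.78, 13.86, 13.48 and 13.60, and the medians of the treated groups were 13.61 (24SD), 13.72 (72SD), 13.83 (24NES) and 13.78 (72NES). The medians of cohort 2 lay higher, at 14.73 (HC), 14.58 (24SD) and 14.63 (72SD). Of the 12 HC arrays there, 9 lay at 14.56 or above and 3 at 13.72 to 13.83, arrays 6 and 17 among the 3. U75398_s_at, also annotated to Egr1, lay below HC in all 6 treated groups, by 0.04 to 0.37, except that 72SD of cohort 2 was level with HC (0.0021 ± 0.087) without HC arrays 6 and 17. Its deviations correlated at r = -0.22 with those of AF023087_s_at over 69 arrays. The 4 probe sets of Egr1 are therefore given apart.

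Jun, the other partner in AP-1, had 4 probe sets, with changes from -0.22 to 0.13 in all groups. Its brightest read 11.88 to 12.41 in HC of cohort 1 and 11.34 to 12.34 in the treated animals of that cohort. Junb, a Jun relative that restrains its activity, lay below HC at 24 hours of SD in both cohorts, by 0.25 and 0.23 on rc_AA891041_at and by 0.09 and 0.21 on X54686cds_at. At 72 hours it lay below HC in cohort 2, by 0.30 and 0.15, and above it in cohort 1, by 0.03 and 0.14. Its HC arrays of cohort 1 read 10.29, 10.77, 10.66, 10.55 and 10.19, and its 24SD arrays 9.30 to 10.71 (median 10.29), with 9.30 in array 18. Without that array the difference of cohort 1 on rc_AA891041_at was -0.12 ± 0.13. The pooled 24SD change was -0.27 ± 0.12 (adjusted p = 0.267) and -0.18 ± 0.071 (adjusted p = 0.217) on the 2 probe sets.

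Nr4a1, an orphan nuclear receptor, read 11.29 to 12.15 in HC and 11.04 to 12.29 in the treated groups of cohort 1. In cohort 2 its 24SD change was -0.52 ± 0.33, where 24SD array 34 read 8.48 and the other 7 read 11.87 to 12.44. HC arrays 6 and 17 were low as well, at 11.54 and 10.76, and the other 10 read 12.00 to 12.78. The change was -0.07 ± 0.19 without array 34, -0.72 ± 0.32 without the 2 HC arrays and -0.27 ± 0.13 without all 3 (adjusted p = 0.758). The pooled 24SD change was -0.35 ± 0.21, and became -0.09 ± 0.13 without array 34 and -0.47 ± 0.20 without the 2 HC arrays (adjusted p = 0.352). Arc, which encodes a postsynaptic protein that drives AMPA receptor endocytosis and whose RNA travels to dendrites, stayed within 0.21 of HC in each group mean, and within 0.24 without HC arrays 6 and 17. HC of cohort 1 read 12.71, 12.95, 12.86, 12.78 and 12.61, and the group medians of both cohorts lay between 12.71 and 13.03. Its pooled change was -0.17 ± 0.093 at 24 hours (adjusted p = 0.397) and -0.04 ± 0.087 at 72 hours (adjusted p = 0.927), and without those arrays -0.21 ± 0.094 (adjusted p = 0.374) and -0.08 ± 0.089.

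**Figure D3:**
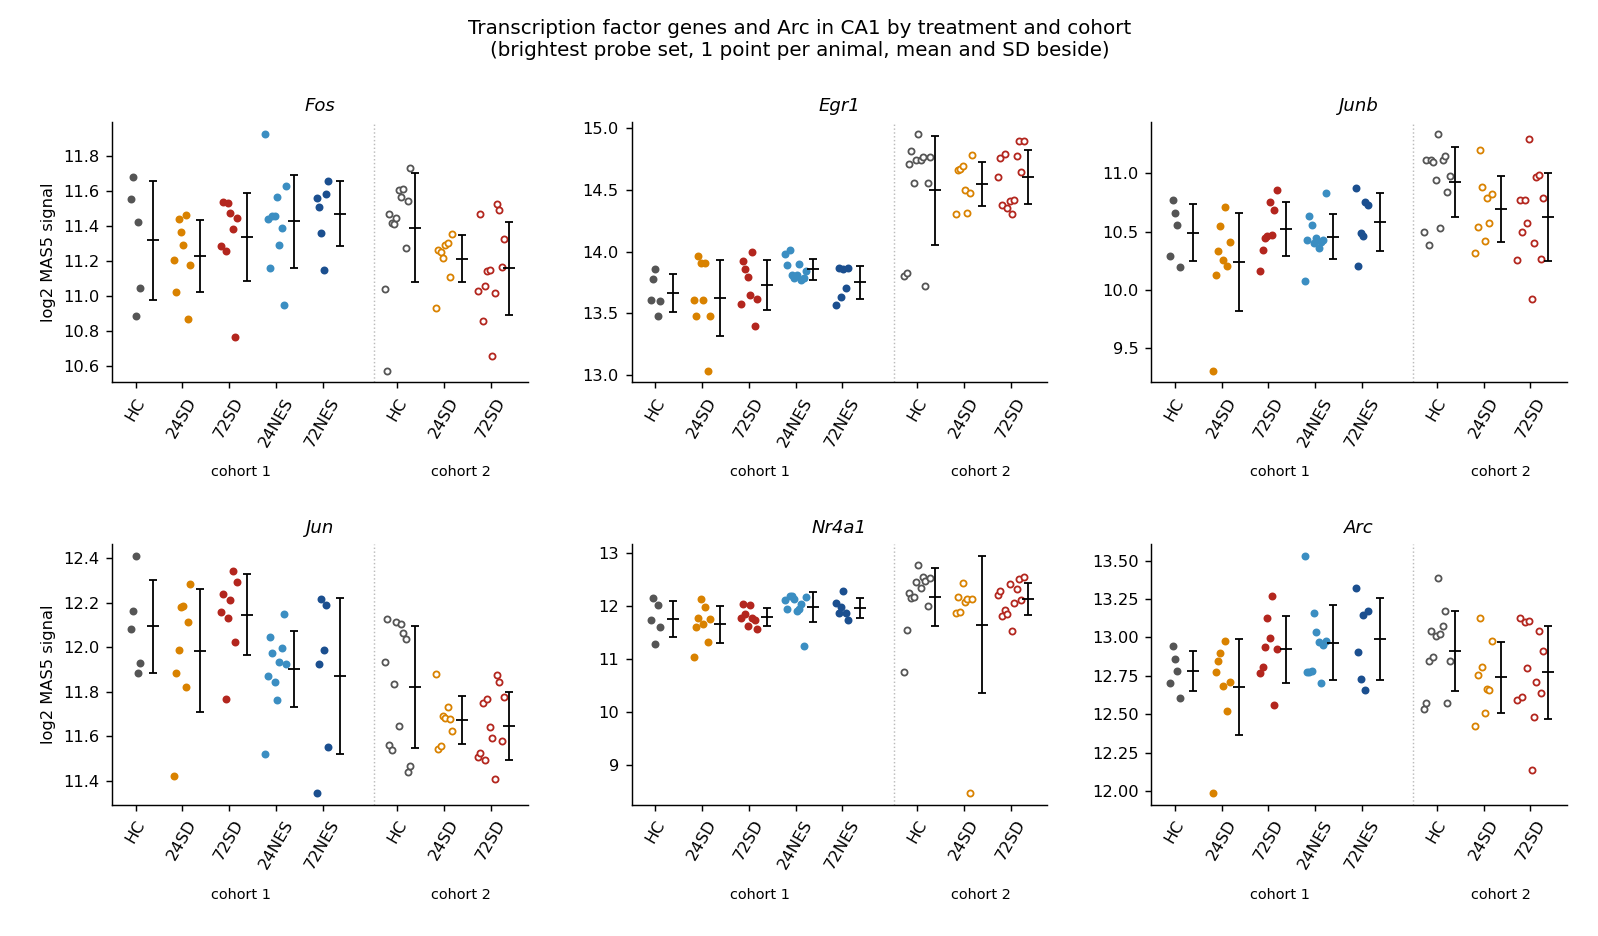
Log2 MAS5 signal (y axis) of Fos, Egr1, Junb, Jun, Nr4a1 and Arc by treatment group (x axis), filled points for cohort 1 and open points for cohort 2, with mean and SD beside. Treated and HC points overlap in every panel, the 24SD point of Nr4a1 at 8.48 stands alone, and 3 HC points of Egr1 in cohort 2 lie at the level of cohort 1.

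SD was set against NES at matched duration in cohort 1, which asks what the loss of sleep adds to the chamber. The SD rats had been trained and the NES rats are not named among the trained, so training cannot be told apart from sleep loss here. At 24 hours 0 of the 24 passed, where 1 of 8740 did (0.0114%), and 4 had an unadjusted p under 0.05, all lower in 24SD, against 5.97% of all probe sets (3.7% lower). They were Nr4a1 (-0.33 ± 0.13, adjusted p = 0.697), Arc (-0.29 ± 0.12, adjusted p = 0.703) and 2 probe sets of Egr1 (-0.24 ± 0.096 and -0.25 ± 0.11, adjusted p = 0.701 and 0.745). Without 24SD array 18, the lowest in Arc, Junb and M18416_at of Egr1 in its group, this count was 1. In the sign of the difference 21 of 24 probe sets lay lower in 24SD, with a median of -0.18 against -0.02 for all. At 72 hours 0 of 8740 probe sets passed and 585 had an unadjusted p under 0.05 (6.69%), among them Junb X54686cds_at (0.26 ± 0.10) and Jun rc_AI175959_at (0.28 ± 0.13), both higher in 72SD, and 16 of the 24 lay higher. For Ptgs2, Nptx1, Ifrd1 and Dusp6, the 4 genes set apart from HC, the adjusted p of SD against NES was 0.89 or above at both durations. The 24 hour differences ran from -0.21 ± 0.16 (Ptgs2) to -0.02 ± 0.086 (Dusp6) and the 72 hour ones from 0.07 ± 0.098 (Dusp6) to 0.19 ± 0.17 (Ifrd1).

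Between the cohorts, 13 of the 24 probe sets differed at an adjusted p under 0.05, 5 higher and 8 lower, beside 50.4% of all probe sets (22% higher, 28.4% lower). Dusp6 was higher in cohort 2 on both probe sets, by 0.46 ± 0.057 (adjusted p = 3.49e-09) and 0.36 ± 0.076. Nptx1 was lower on rc_AI072943_at by 0.62 ± 0.11 and on rc_AI044716_at by 0.46 ± 0.082. Jun was lower on 3 of its 4 probe sets, from -0.37 ± 0.062 to -0.28 ± 0.087, and Ptgs2 on L25925_s_at (-0.47 ± 0.11). Egr1 had 1 probe set higher (AF023087_s_at, 0.88 ± 0.081), 2 lower (U75398_s_at, -0.56 ± 0.057, and rc_AI176662_s_at, -0.21 ± 0.084) and 1 with no call. Fos X06769cds_at (0.37 ± 0.13) and Junb rc_AA891041_at (0.31 ± 0.094) were higher and their other probe sets had no call. These differences were taken over HC and SD arrays together, and some were small or absent in HC alone. On rc_AI072943_at of Nptx1 the HC means were 11.66 in cohort 1 and 11.68 in cohort 2, or 11.54 without arrays 6 and 17. Its SD means were 12.36 (24SD) and 12.34 (72SD) in cohort 1, and 11.56 and 11.41 in cohort 2. For rc_AI176662_s_at of Egr1 the HC means of the cohorts were 10.41 and 10.43, and for L25925_s_at of Ptgs2 8.99 and 8.90. With 15 HC arrays, leaving out 6 and 17, 13 of 24 were again called, beside 51.8% of all probe sets. The 10th percentile of the signals, which moves with background, averaged 31.3 to 33.8 in the groups of cohort 1 and 27.5 to 29.1 in cohort 2. The CA3 markers measured (Bok and Grik4, 2 of 4 listed) averaged 11.25 to 11.39 in the groups of cohort 1 and 10.41 to 10.52 in cohort 2 on the log2 scale. The part of either in these differences was not tested.

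**Figure D4:**
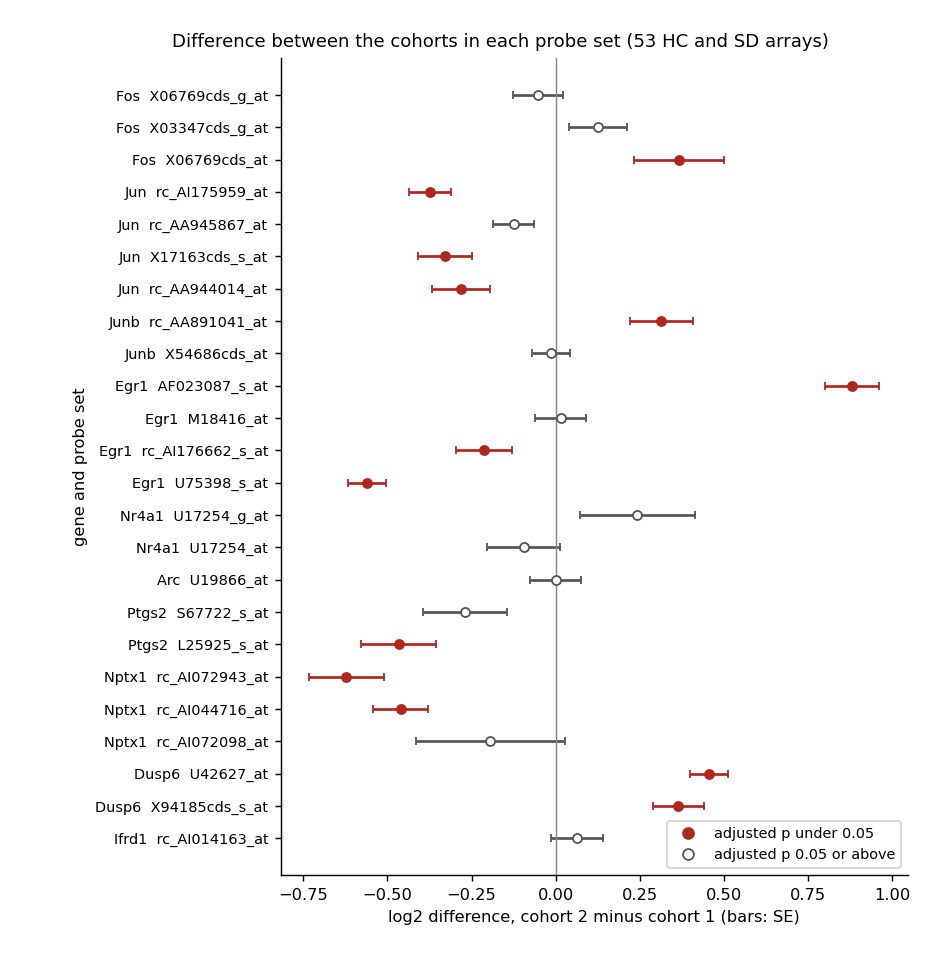
Log2 difference between cohort 2 and cohort 1 (x axis, points with SE) for each of the 24 probe sets (y axis) in 53 HC and SD arrays, red where the adjusted p was under 0.05. Both Dusp6 points lie to the right and 3 of 4 Jun points clearly to the left, whereas the Egr1 points run from -0.56 to 0.88.

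Within groups the genes were set against each other animal by animal. Each value was taken as its deviation from the mean of its group and cohort, over 69 arrays, and the 45 pairs of genes are described without a test. Their median r was 0.24, that of all pairs among 2689 genes -0.003, and 10 of the 45 lay above 0.38, the 95th percentile of all pairs. The highest were Fos with Egr1 (r = 0.60, rho = 0.58), Arc with Junb (r = 0.57, rho = 0.50), Junb with Dusp6 (r = 0.51, rho = 0.41) and Arc with Fos (r = 0.51, rho = 0.48). Jun stood apart, with r from -0.23 to 0.21 against the other 9. Without the 2 arrays farthest from the median of the first gene these 4 were 0.52, 0.44, 0.44 and 0.49. Points of a pair share the array, its scaling and the dissection.

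The pairs of Nptx1 are given by cohort. In the 37 arrays of cohort 1, Nptx1 went with Ifrd1 (r = 0.76), Ptgs2 (r = 0.68) and Dusp6 (r = 0.44), and in the 32 arrays of cohort 2 these values were 0.16, -0.11 and -0.22. Arc with Junb (0.38 in cohort 1, 0.74 in cohort 2), Arc with Dusp6 (0.18 and 0.67) and Junb with Dusp6 (0.27 and 0.69) were the other way. In cohort 2 without HC arrays 6 and 17 the last 3 were 0.78, 0.64 and 0.68, whereas Fos with Nptx1 moved from -0.63 to -0.47 and Fos with Egr1 from 0.75 to 0.62. Ptgs2 with Nptx1 changed sign, from -0.11 to 0.17, and Nptx1 with Dusp6 moved from -0.22 to -0.07.

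**Figure D5:**
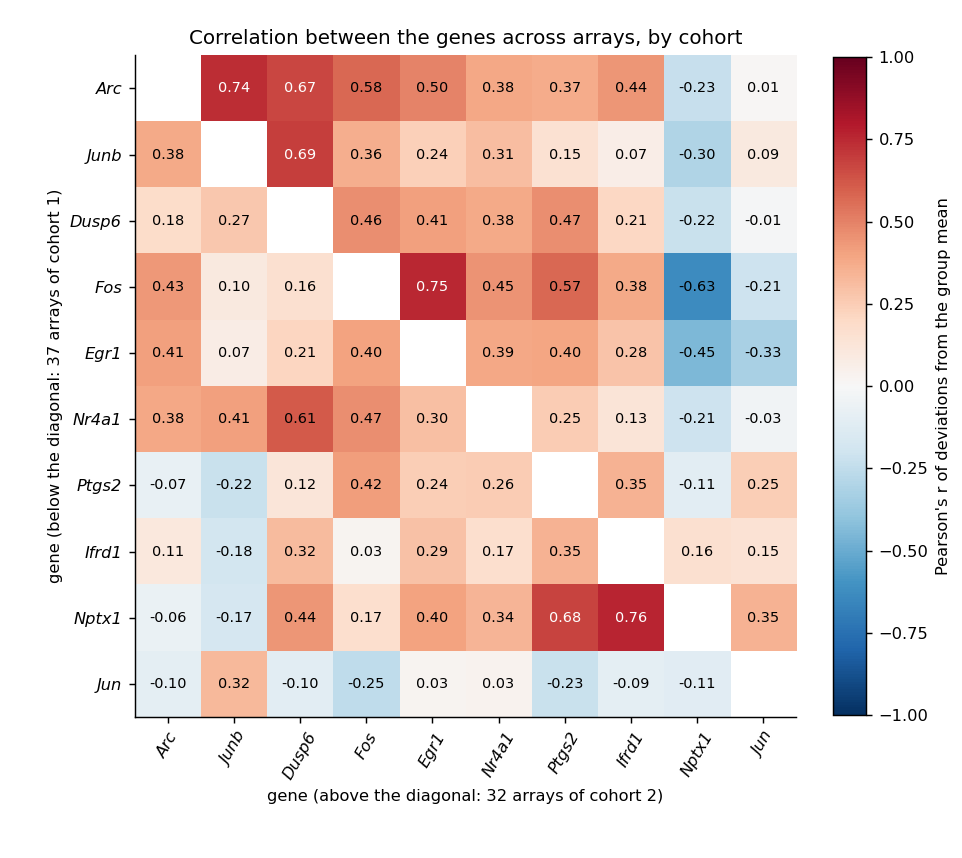
Pearson's r between the genes' deviations from their group mean, below the diagonal over 37 arrays of cohort 1 and above it over 32 arrays of cohort 2. Nptx1 has red cells with Ifrd1 (0.76) and Ptgs2 (0.68) in cohort 1 and pale ones in cohort 2 (0.16 and -0.11), and Arc, Junb and Dusp6 form a red corner in cohort 2 (0.67 to 0.74).

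The genes most like each member were looked up in the same way among 2688 other bright genes. Nptx1 was nearest to Gria2, the AMPA receptor subunit (r = 0.64), and Ifrd1 to Gria2 as well (r = 0.63). Arc was nearest to Junb and then to Dusp1, another MAP kinase phosphatase (r = 0.52). Fos was nearest to Camlg and then to Egr1, both at r = 0.60. Dusp6 was nearest to Itpr1, the calcium release channel (r = 0.61), Ptgs2 to Dgkh (r = 0.61), Egr1 to Lrrc59 (r = 0.64), Jun to Ube2h (r = 0.64), Junb to Rasl11b (r = 0.62) and Nr4a1 to Crip2 (r = 0.58).

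Other activity-regulated genes were read from a list, of which 42 were measured. In SD against HC over both durations 0 of 42 passed the adjusted test, 12 were higher and 30 lower, and the median change was -0.06 (all genes -0.02). The smallest p belonged to Klf4, a zinc finger factor, at -0.56 ± 0.14 at 24 hours (adjusted p = 0.0576) and -0.53 ± 0.13 at 72 hours (adjusted p = 0.291), with lower values in both cohorts. Cebpb, a leucine zipper factor, lay 0.32 ± 0.10 above HC at 24 hours of SD and 0.36 ± 0.12 above it in 24NES (adjusted p = 0.125 and 0.264). Its 24SD change was 0.53 ± 0.12 in cohort 1 alone and 0.20 ± 0.15 in cohort 2 alone. In 72NES it lay 0.43 ± 0.13 above HC (adjusted p = 0.844). Vgf, a secreted peptide precursor, lay 0.19 ± 0.066 above HC at 72 hours of SD (adjusted p = 0.497), and Inhba, a subunit of activin, 0.44 ± 0.16 below it at 24 hours (adjusted p = 0.181). Of 13 measured genes that signal to immediate early promoters, 0 passed in the same comparison, 7 were higher and 6 lower. Mef2d, an activity-dependent factor at such promoters, was the nearest at -0.26 ± 0.084 in 24SD (adjusted p = 0.130), while the adaptor Grb2 and the kinase genes Mapk8 and Prkaca gave -0.10 ± 0.048, -0.33 ± 0.28 and -0.09 ± 0.067. Prkaca was at -0.31 ± 0.10 in 24SD of cohort 1 alone and 0.05 ± 0.085 in cohort 2 alone, whereas Mef2d, Grb2 and Mapk8 were lower in both.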

How the data were processed

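Per the labels, RNA of CA1 from 69 rats was hybridized to 1 RGU34A array each. The deposited intensity values are linear MAS5 signals, whose version is not given in the sources used here. Every array had a trimmed mean of 1502 after removal of 2% at each end. The target intensity named in the paper is a different value, and the reason is not known. Arrays were grouped by treatment and cohort as labelled. Signals were set to a floor of 1 and taken to log2, 59 control probe sets of 8799 were left out, and 8740 were fitted with limma 3.58.1 (R 4.3.3, lmFit and eBayes), with Benjamini-Hochberg adjustment over all of them. HC and SD arrays (53) were fitted with cohort as a term, and HC and NES arrays of cohort 1 (21) and all arrays of cohort 1 (37) without one. Of the probe sets, 7006 had 1 gene symbol, 308 several and 1426 none, and the 10 genes matched RefSeq by gene number. Other activity-regulated and signalling genes are named where they passed an adjusted test and otherwise for the smallest p of the SD F-test, up to 4 per list. The genes and lists were chosen with earlier results of these data known. Alternatives were a floor of 50, quantile normalization, median centring, a filter on dim probe sets, a trend in the spread, the methods' ANOVA, each cohort alone and leaving out arrays. The fits were tested on simulated data. The number of arrays per group limits the precision.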

Additional observations from a re-analysis of the deposited data

Results flagged for a closer look

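In 12 of 144 sets of values, each of 1 probe set in 1 group of 5 to 10 arrays (8.33%), 1 array lay far from the others of its group, where chance gives about 5%. The 2 groups of 12 arrays, HC and 72SD of cohort 2, were not examined in this way. 24SD array 18 of cohort 1 was the lowest of its group in Arc (11.99), in M18416_at of Egr1 (10.89) and in rc_AA891041_at of Junb (9.30). 24SD array 34 of cohort 2 was the lowest of its group in both Nr4a1 probe sets (8.48 and 9.60), and 24NES array 66 was so too (11.24 and 10.45). HC array 3 was the lowest of the 5 HC arrays of cohort 1 in U17254_at of Nr4a1 (10.28) and in rc_AI072098_at of Nptx1 (7.27), and 24SD array 35 of cohort 2 was the lowest of its group in the latter (6.31). 72SD array 42 of cohort 1 was the lowest of its group in X06769cds_g_at of Fos (10.77) and 72SD array 41 the highest of it in X54686cds_at of Junb (11.19).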

How the results depend on the processing

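The count of the 24 probe sets past the adjusted threshold in 24NES against HC was 0, and became 1 with a floor of 50, 1 with a trend in the spread and 3 with the filter on dim probe sets, under which 10 were tested. The cohort count of 13 became 6 of those 10. The other counts, 147 of 151, were unchanged or stayed within 1.5 times of their value. In every comparison but that between cohorts the count was 0, so an unchanged count there means only that no member was called. Of 520 values of single genes, 9 changed sign. Arc between cohorts was -0.011 with quantile normalization, and -0.018 without 24SD replicate 30; with single arrays left out it ran from -0.032 (24SD replicate 18) to 0.0024 (24SD replicate 34). Egr1 in SD was -0.084 with cohort left out and -0.035 with HC arrays 6 and 17 left out. Arc in SD was 0.020 in cohort 1 alone, and Nptx1 in SD was -0.20 in cohort 2 alone. Junb in NES was -0.022 without HC replicate 1, and with single HC arrays left out it ran from -0.046 (replicate 5) to 0.098 (replicate 2). None of these had passed. Nr4a1 passed between cohorts without 24SD replicate 34 (0.39, adjusted p = 0.00132), and Ptgs2 with the filter (adjusted p = 0.0488). The counts at an unadjusted p under 0.05 ran from 1 to 13 in 24SD, 2 to 7 in 72SD, 4 to 7 in 24NES and 2 to 5 in 72NES. In 72NES the count of 4 became 2 without HC replicate 1. The causes were not tested. No paired analysis was possible because the groups share no subject numbers.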
